A study of Mus musculus with 4 samples.

Results

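Genes of glycolysis and of the response to low oxygen were followed in cultured mouse lung endothelial cells whose glucocorticoid receptor (GR, gene Nr3c1) had been lowered by siRNA. The set was a list of 40 gene symbols picked by pathway, although results of these data were known when it was drawn up: 2 glucose transporters, 15 glycolytic enzymes, 4 genes of lactate formation and transport, 2 regulators of the PFKFB family, 4 pyruvate dehydrogenase kinases, 6 genes of the HIF factors and oxygen sensing, and 7 hypoxia targets. All 40 had a row in the expression table, which holds 23997 genes. The cells were from C57BL/6 mice and were grown in EBM-2 medium with 10% serum. They received control siRNA or GR siRNA for 48 h, and dexamethasone (DEX), a synthetic glucocorticoid that activates GR, was absent or present at 100 nM for 18 h. The 4 groups were thus cells with control siRNA (control cells) or with GR siRNA (knockdown cells), each without and with DEX. Paired values below are always given without DEX first and with DEX second. The knockdown leaves part of the receptor mRNA in place, and the medium contained serum in every group.

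Glycolysis splits glucose into pyruvate in the cytosol, and pyruvate is then reduced to lactate or oxidised in mitochondria. Endothelial cells are known to draw most of their energy from glycolysis even when oxygen is present. Hypoxia-inducible factors (HIFs) pair an oxygen-labile alpha subunit, HIF-1α (Hif1a) or HIF-2α (Epas1), with the constant partner ARNT. When oxygen is present, prolyl hydroxylases (Egln genes) mark the alpha subunit and the VHL protein directs its destruction. Stabilised HIF binds hypoxia response elements, whose core reads ACGTG or GCGTG, near genes of glucose uptake, glycolysis and adaptation to low oxygen. The mRNA levels given here do not report the amount of HIF protein.

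The core element is shown in its setting for 6 members whose levels differed between the siRNA groups, 5 higher and 1 lower in knockdown cells. These 6 were picked by that difference and because they hold a core, and they are not the 6 that differed most. Not every member lower in knockdown cells holds a core. The core ACGTG also stands in promoters of members with smaller differences, such as Gapdh, Pgk1, Pkm and Aldoa. Each window of 30 bases lies upstream of an annotated start, was taken from RefSeq promoters (build GRCm38.p6, 250 bases before to 50 bases after the start), reads 5′ to 3′ on the strand of the gene, and has 1 core in capitals. Further cores in the windows of Slc16a3, P4ha2 and, on the other strand, Ldha are left in lower case.
Ldha, chr7:46845745-46845774, plus strand: ggcccagcctacACGTGggttcccgcacgt
Slc16a3, chr11:120949028-120949057, plus strand: caggcagcggtgACGTGcgcgggggacgtg
Pfkfb3, chr2:11553972-11554001, minus strand: ctccgcgccgtgACGTGccaagctgtgacc
Pdk3, chrX:93832186-93832215, minus strand: cgcgcgccgcgtACGTGcggcggcagatcc
P4ha2, chr11:54100834-54100863, plus strand: tgtgcatcgcatACGTGcagcgcgtggcgg
Pdk1, chr2:71873134-71873163, plus strand: ccgcctacatggGCGTGtctttaaccaggg

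Promoters of 37 of the 40 members were in the RefSeq table, with Slc2a3, Epas1 and Ndrg1 the others. ACGTG on either strand stood in at least 1 promoter of 24 of these 37 genes (64.9%), against 21.8% of 27025 genes in the table and 30.1% of 8574 genes that reached 1 FPKM. GCGTG also stood in 24 of the 37 (64.9%), against 35.2% of all genes and 57.6% of those that reached 1 FPKM. With either core counted, the share was 33 of 37 members (89.2%) against 46.7% of all genes and 69.3% of those that reached 1 FPKM, and the 2 motifs can overlap in sequence. The palindromic glucocorticoid response element, AGAACA and then any 3 bases and TGTTCT, was in no promoter of a member and in 3 of 32851 promoters in all. Such matches describe letters in a window and do not show binding.

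The table holds FPKM (fragments per kilobase of transcript, scaled to library size) in 1 column per condition. The series design states 3 replicates per condition, and the sources used here do not give whether a column is 1 library or a value over several. Low values lay mostly near whole multiples of 1 step in each column, a step chosen to bring as many of them there as possible. With it, 76.6 to 79.6% of the genes under 2.5 steps lay within 0.15 of a whole step. Largely the same genes set the step, so this share is no independent check of it. The step placed the depth at an estimated 34100000 and 48800000 fragments in control cells and 50800000 and 41200000 in knockdown cells, which is approximate because transcript lengths came from an annotation (GENCODE M21). Nr3c1 was 14.4 and 14.3 FPKM in control cells and 5.45 and 5.32 FPKM in knockdown cells, lower in both columns that carry the GR siRNA label. All 12 endothelial markers were above 1 FPKM in every column and summed to 3056 and 3067 FPKM in control cells and to 2815 and 2743 FPKM in knockdown cells. Of 12 markers of fibroblasts and mural cells, 9 stayed below 1 FPKM and Rgs5 was at 0 throughout, but the list summed to 7.90 to 8.26 FPKM in control cells and to 13.0 to 14.6 FPKM in knockdown cells. Of 8 epithelial markers 6 stayed below 1 FPKM, with sums of 4.24 to 5.71 FPKM. The table holds 7 leukocyte markers, of which 6 stayed below 1 FPKM, Ptprc and Cd3e were at 0, and Cd68 made up most of a sum of 161 to 177 FPKM in control cells and 194 to 219 FPKM in knockdown cells. The fibroblast and leukocyte sums were higher and the endothelial sum lower in knockdown cells, and their part in the differences below was not tested. In cultures measured in bulk, fewer cells of a type and less RNA per cell cannot be told apart.

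Differences between 2 columns are given on the log2(FPKM + 1) scale, a scale that shrinks the differences of scarce transcripts, and these have no replicate check. To set the siRNA and DEX differences against a spread, an additive model with 1 term for siRNA and 1 for DEX was fitted over the 4 columns to all 11445 genes with at least 1 FPKM in 1 column (limma, Benjamini-Hochberg adjustment over all of them). This fit was chosen after the data had been seen. Its error for each gene combines the gene's own variation with a spread estimated over all genes of like level. The gene's own part is the amount by which its siRNA difference varies between the DEX states, with 1 residual degree of freedom. The part borrowed from other genes weighs more, with 2.75 prior degrees of freedom. The p-values of the fit cover only the spread among these 4 samples, which the labels do not state to be separate cultures. A gene is called here if its adjusted p was below 0.05.

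Both hexokinase genes, the phosphofructokinase genes Pfkl and Pfkp, Ldha, Pdk3 and Hif1a were among the members called higher in knockdown cells, while Epas1 (HIF-2α), Arnt, Vhl and Pdk1 were among those called lower. Of the 40 members, 37 reached 1 FPKM in a column; Aldoc, Eno2 and Pdk4 did not. In the additive fit 13 of the 37 were called higher in knockdown cells (35.1%), where 9.45% of all genes were, and 6 were called lower (16.2%), where 11.7% of all genes were. For 22 members both knockdown columns lay above both control columns, as for 32.3% of all genes, and for 14 they lay below, as for 36.6%; Gpi1 alone overlapped. Fold counts here are ratios of FPKM + 1. On that scale hexokinase 2 (Hk2) was the single member at least 1.5-fold higher in both DEX states (1.37% of all genes), and none was at least 1.5-fold lower in both (1.63%). On FPKM itself Pfkfb4 was also at least 1.5-fold higher in both, with ratios of 1.996 and 1.675, and Pdk1 was at least 1.5-fold lower in both, with ratios of 0.651 and 0.6098. Without DEX and on the FPKM + 1 scale, Hk2 and Slc16a3 were at least 1.5-fold higher (2.36% of all genes) and no member was 1.5-fold lower (2.54%). With DEX and on the same scale, Hk2 was again higher (2.36%) and Pdk1 and Epas1 were lower (2.62%). At the milder ratio of 5 to 4 in both DEX states, Hk2, Pfkl, Slc16a3, Pfkfb4 and Pdk3 were higher (4.98% of all genes) and Pdk1, Epas1, Arnt and Vhl lower (5.73%). At that ratio 9 members were higher (7.7%) and 7 lower (8.86%) without DEX, and 7 were higher (7.78%) and 4 lower (8.69%) with DEX. None was 2-fold higher (0.786% and 0.573% of all genes without and with DEX) or 2-fold lower (0.715% and 0.776%). With no filter on low values, the additive fit called 0 of all 23997 genes and so none of the 40 members. The lowest adjusted p of a member was then 0.19, although 18 members had an unadjusted p below 0.05 (12 higher, 6 lower).

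**Figure D1:**
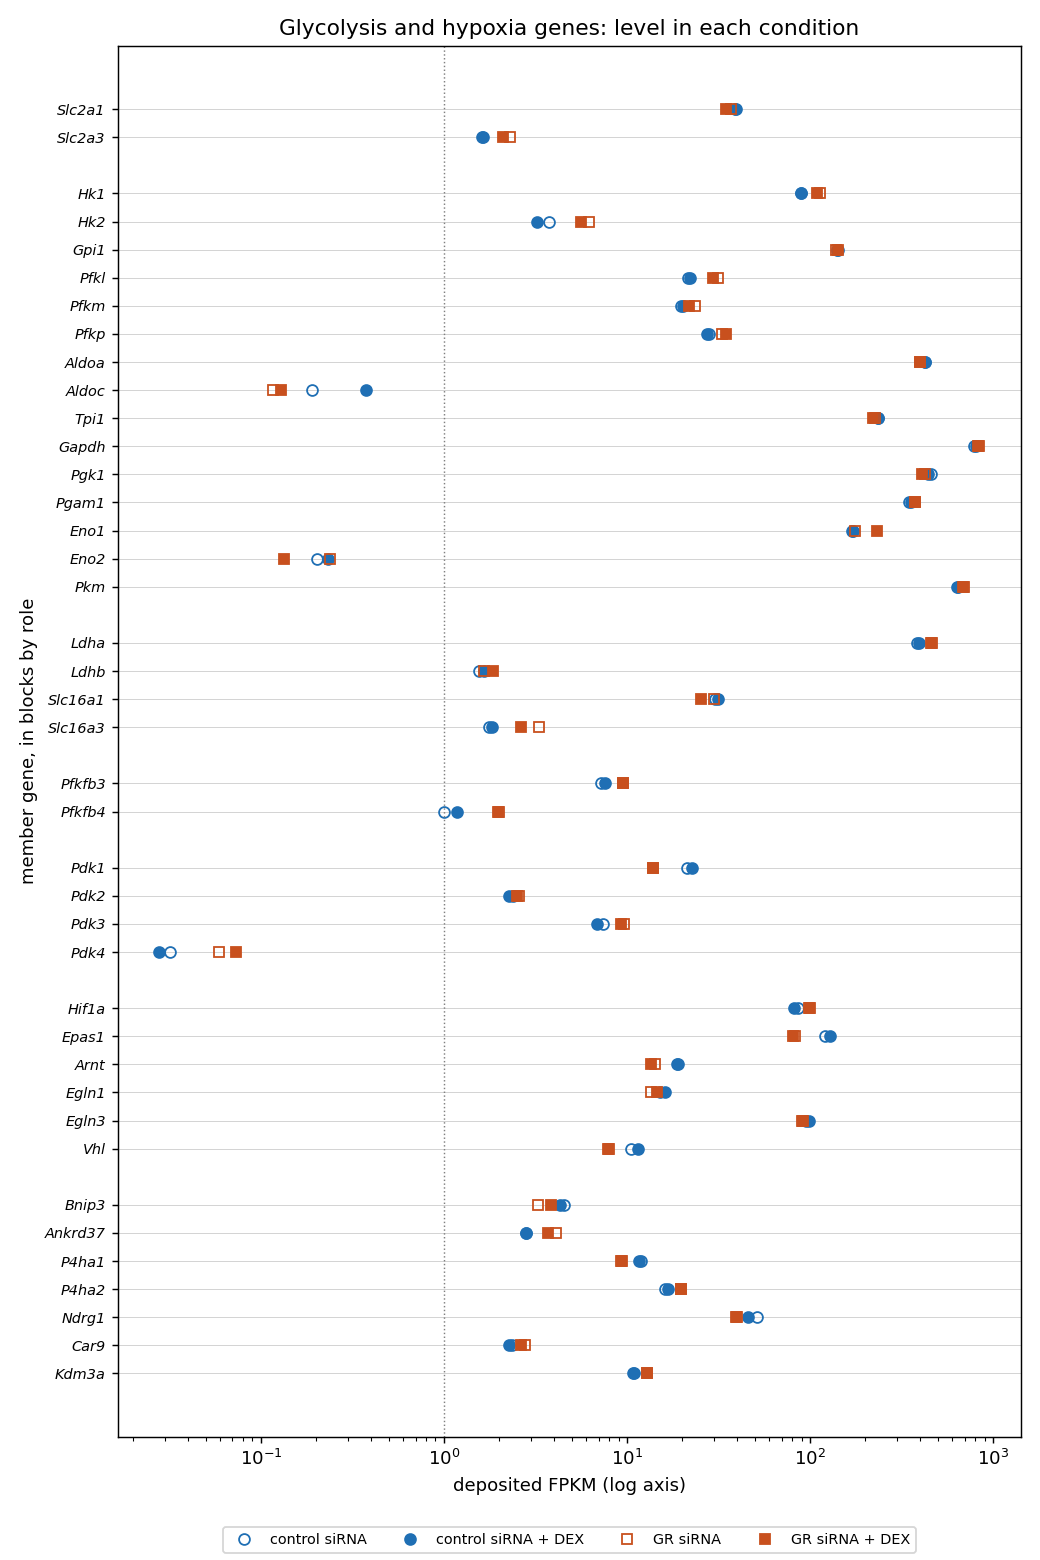
Deposited FPKM (log axis) of the 40 members in blocks by role, with 1 point per condition; control cells have circles, knockdown cells squares, DEX-treated columns are filled, and the dotted line marks 1 FPKM. The filled symbol mostly sits beside its open counterpart, and squares lie left of circles for Epas1, Arnt, Vhl and Pdk1 and right of them for Hk2, Pfkl and Pfkfb4.

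Among the HIF subunits the alpha genes went in opposite directions. Epas1, which encodes HIF-2α (chromosome 17, 86753700 to 86833410 in mm10), was 121 and 129 FPKM in control cells against 82.9 and 80.5 FPKM in knockdown cells. Both knockdown columns were well below both control columns, and 36.6% of all genes also had both below. The additive estimate was −0.61 ± 0.05 (SE, 4 columns; adjusted p = 0.014). Hif1a, which encodes HIF-1α (chromosome 12, 73901375 to 73947530), was 86.0 and 82.3 FPKM in control cells and 98.7 and 99.8 FPKM in knockdown cells. It was higher in both knockdown columns, as were 32.3% of all genes, and by a smaller amount, 0.24 ± 0.04 (SE; adjusted p = 0.041). Epas1 therefore made up 58.5 and 61.0% of the summed FPKM of the 2 alpha genes in control cells and 45.6 and 44.6% in knockdown cells, and the sum itself was 207 and 211 FPKM against 182 and 180 FPKM.

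Arnt, the shared partner of both alpha subunits, was 18.8 and 19.1 FPKM in control cells and 14.2 and 13.5 FPKM in knockdown cells. The groups did not overlap, as for 36.6% of all genes in this direction, and the estimate was −0.43 ± 0.05 (SE; adjusted p = 0.018). Vhl, whose product tags hydroxylated alpha subunits for destruction, stood at 10.5 and 11.5 FPKM in control cells against 8.01 and 7.92 FPKM in knockdown cells, an estimate of −0.42 ± 0.05 (SE; adjusted p = 0.023). The prolyl hydroxylases showed smaller differences that were not called. Egln1 was 15.3 and 16.1 FPKM against 13.5 and 14.6 FPKM (adjusted p = 0.088), and Egln3, the most abundant of the family here, was 94.9 and 98.3 FPKM against 90.8 and 91.1 FPKM (adjusted p = 0.21).

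**Figure D2:**
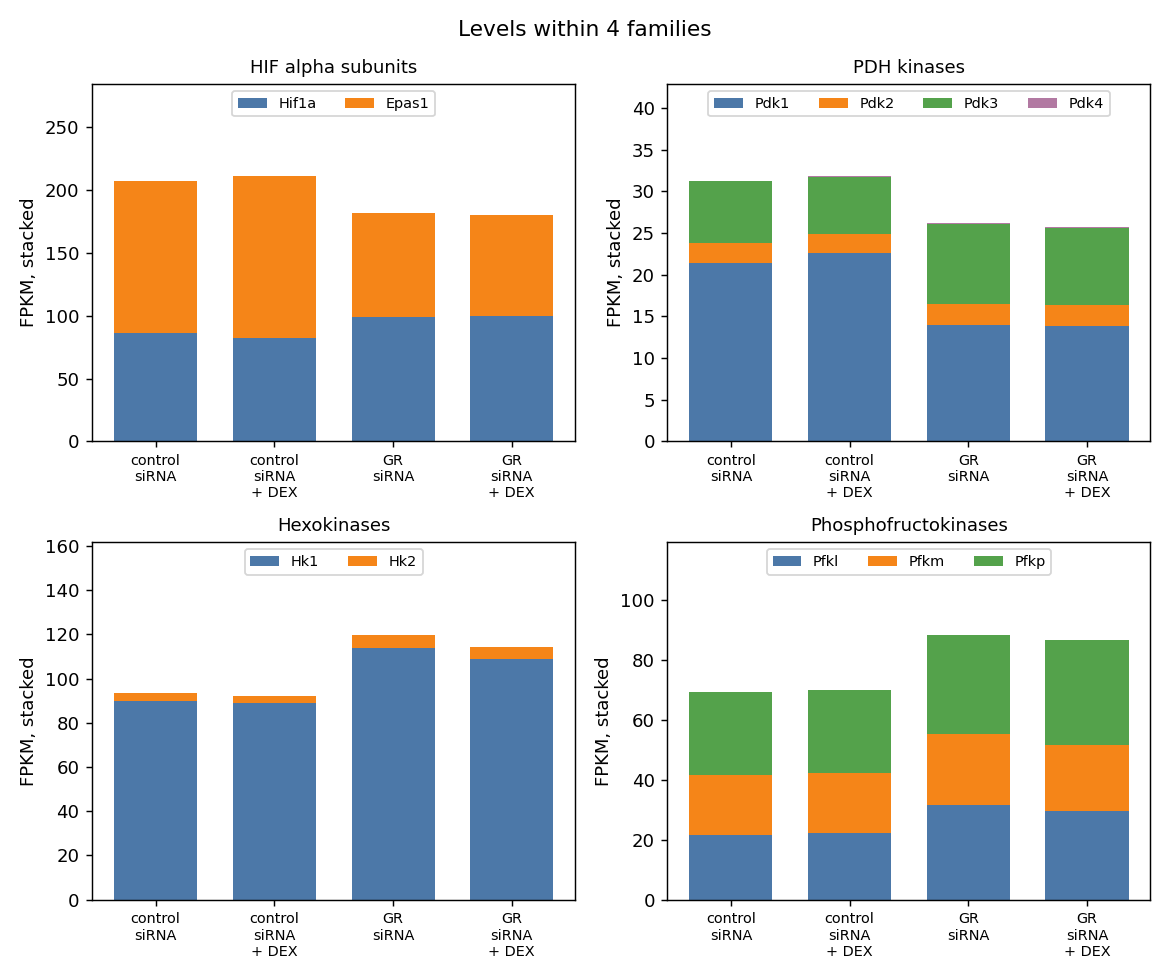
Stacked FPKM (linear axis from 0) of 4 families in the 4 conditions, with 1 colour per gene and no error bars because there is 1 column per condition. The Epas1 part of the HIF alpha bar and the Pdk1 part of the PDH kinase bar are smaller in both knockdown columns, while the hexokinase bars are taller (120 and 115 FPKM against 93.6 and 92.3 FPKM), as are the phosphofructokinase bars (88.3 and 86.6 FPKM against 69.4 and 69.8 FPKM).

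Glucose uptake genes were not called. Slc2a1, which encodes GLUT1, the main glucose transporter of endothelium, was 39.7 and 38.8 FPKM in control cells and 37.0 and 34.6 FPKM in knockdown cells (−0.13 ± 0.04, SE; adjusted p = 0.11). The scarcer Slc2a3 (GLUT3) was 1.64 and 1.61 FPKM against 2.31 and 2.11 FPKM (adjusted p = 0.063).

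Of 13 glycolytic enzyme genes tested 4 were called higher in knockdown cells (9.45% of all genes were) and none lower (11.7% of all genes). These 4 encode hexokinases or phosphofructokinase subunits. Hexokinases trap glucose in the cell by phosphorylating it, and both measured genes were called. Hk1, which held 94.9 to 96.5% of the hexokinase FPKM, was 89.9 and 89.1 FPKM in control cells and 114 and 109 FPKM in knockdown cells (0.31 ± 0.04, SE; adjusted p = 0.024). Hk2 (chromosome 6, 82725025 to 82774454), the inducible form, was 3.77 and 3.23 FPKM against 6.17 and 5.60 FPKM. Its estimate of 0.61 ± 0.05 (SE; adjusted p = 0.014) was the largest positive one among the members.

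Phosphofructokinase, the committed step of the pathway, has 3 subunit genes. All 3 were higher in both knockdown columns, as were 32.3% of all genes. The liver form Pfkl (chromosome 10, 77986947 to 78010083) was 21.6 and 22.1 FPKM against 31.6 and 29.7 FPKM (0.47 ± 0.05, SE; adjusted p = 0.018). The platelet form Pfkp was 27.9 and 27.5 FPKM against 33.2 and 35.0 FPKM (0.29 ± 0.05, SE; adjusted p = 0.031). The muscle form Pfkm was 19.8 and 20.2 FPKM against 23.5 and 21.9 FPKM and was not called (adjusted p = 0.089). The bifunctional PFKFB enzymes make and remove fructose-2,6-bisphosphate, which activates phosphofructokinase, and both members were called higher. Pfkfb1 and Pfkfb2, which lie outside the set and were chosen for naming after their values were seen, were not called. Pfkfb1 was 3.49 and 3.40 FPKM in control cells against 2.74 and 3.44 FPKM in knockdown cells (adjusted p = 0.37). Pfkfb2 was 3.22 and 3.42 FPKM against 3.31 and 3.07 FPKM (adjusted p = 0.66). Pfkfb3, the form known for driving endothelial glycolysis, was 7.24 and 7.62 FPKM against 9.47 and 9.53 FPKM (0.32 ± 0.05, SE; adjusted p = 0.027). Pfkfb4 (chromosome 9, 108991778 to 109032228) was 0.998 and 1.19 FPKM against 1.99 and 1.99 FPKM (0.52 ± 0.08, SE; adjusted p = 0.029). At these levels Pfkfb4 rested on about 119 and 202 fragments in control cells and 353 and 285 fragments in knockdown cells, estimated from the step and the annotated transcript. Its FPKM ratio without DEX was 1.996 with a 95% interval of 1.62 to 2.48 and with DEX 1.675 with an interval of 1.39 to 2.01 (exact binomial on these estimates, counting error only).

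Apart from enolase, given below, the other abundant glycolytic enzymes differed little. Gapdh, Pkm, Pgk1, Aldoa and Pgam1 are among the 6 most abundant members, with means over the 4 columns of 816, 665, 434, 411 and 364 FPKM. None was called, and their estimates lay between −0.10 ± 0.05 (Pgk1, SE) and 0.11 ± 0.05 (Pkm, SE). Gpi1, which follows hexokinase, was 141 and 143 FPKM against 139 and 142 FPKM, and Tpi1 was 236 and 236 FPKM against 227 and 221 FPKM. These 7 genes share 10.5 to 54.7% of their 31-base stretches with other annotated genes, so their counts depend on how shared reads were assigned. The brain forms of aldolase (Aldoc, 0.117 to 0.376 FPKM) and enolase (Eno2, 0.133 to 0.237 FPKM) were scarce, at about 15 to 51 fragments per column, and were not tested. Summed over the 15 glycolytic enzymes, the level was 3379 and 3372 FPKM in control cells and 3469 and 3510 FPKM in knockdown cells. That sum leaves out Eno1b, a copy of Eno1, at 19.0 and 19.7 FPKM in control cells and 87.9 and 25.3 FPKM in knockdown cells.

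Enolase 1 (Eno1) is given together with its copy Eno1b, with which it shares sequence: 81.8% of the 31-base stretches of Eno1b transcripts are also in Eno1, and 27.8% of those of Eno1 are in Eno1b. Eno1 alone was 170 and 172 FPKM in control cells and 175 and 231 FPKM in knockdown cells. Eno1b was 19.0 and 19.7 FPKM in control cells and 87.9 and 25.3 FPKM in knockdown cells. Eno1 thus held 89.7 to 90.2% of the sum in 3 columns and 66.6% in knockdown cells without DEX. The sum was 189 and 191 FPKM in control cells and 263 and 257 FPKM in knockdown cells, so the 2 knockdown columns lay close together once the rows were added. Eno1 by itself was not called (0.24 ± 0.11, SE; adjusted p = 0.20), whereas the sum was 0.45 ± 0.04 higher in knockdown cells (SE; adjusted p = 0.016; limma with the 2 rows added, a fit chosen after the values were seen). Whether reads were assigned differently between the rows was not tested.

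**Figure D3:**
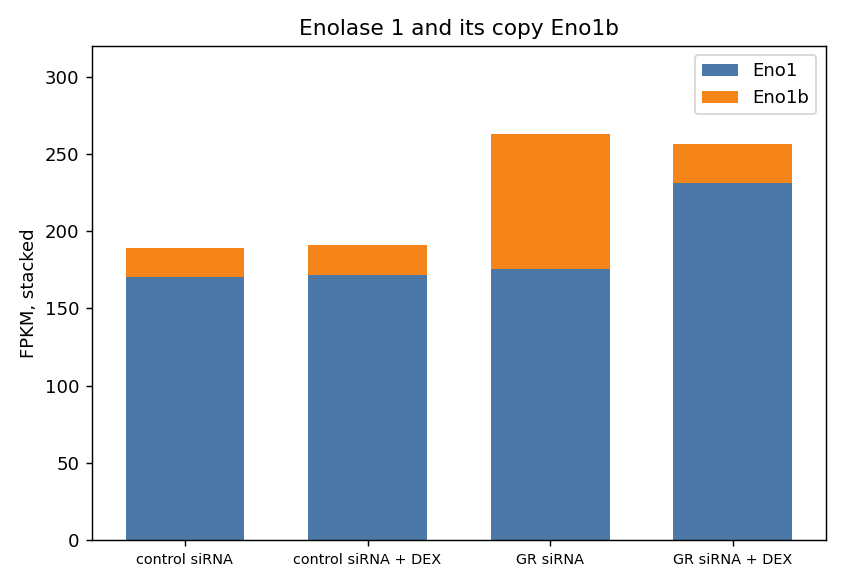
Stacked FPKM (linear axis from 0) of Eno1 and its copy Eno1b in the 4 conditions, 1 column each and no error bars. The division between the 2 rows differs in the knockdown column without DEX, with Eno1b at 87.9 FPKM, while the total heights of the knockdown columns are 263 and 257 FPKM and those of the control columns 189 and 191 FPKM.

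Of the 4 genes of lactate formation and transport, Ldha and Slc16a3 were called higher, where 9.45% of all genes were. Lactate dehydrogenase A (Ldha) turns pyruvate into lactate and held about 99.6% of the FPKM of the 2 dehydrogenase genes. It was 384 and 395 FPKM in control cells and 466 and 459 FPKM in knockdown cells (0.25 ± 0.05, SE; adjusted p = 0.043), with 19.6% of its 31-base stretches in other annotated genes. Ldhb stayed between 1.56 and 1.84 FPKM. The lactate exporter MCT4 (Slc16a3; chromosome 11, 120948480 to 120960868) was 1.75 and 1.84 FPKM against 3.32 and 2.63 FPKM (0.50 ± 0.10, SE; adjusted p = 0.043). The call for Slc16a3 was lost after median ratio rescaling of the columns. The more abundant Slc16a1 (MCT1) was 30.4 and 31.3 FPKM against 29.9 and 25.5 FPKM and was not called (adjusted p = 0.23). The summed FPKM of the 2 transporter genes was 32.1 and 33.1 in control cells and 33.2 and 28.2 in knockdown cells.

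Pyruvate dehydrogenase kinases restrain the entry of pyruvate into mitochondrial oxidation, and the 2 most abundant went in opposite directions. Pdk1 (chromosome 2, 71873224 to 71903858), a classical HIF-1 target, was 21.4 and 22.7 FPKM in control cells and 13.9 and 13.8 FPKM in knockdown cells. Its estimate of −0.63 ± 0.05 (SE; adjusted p = 0.013) was the lowest among the members. The groups did not overlap, as for 36.6% of all genes in this direction. Pdk3 was 7.44 and 6.84 FPKM against 9.60 and 9.29 FPKM (0.36 ± 0.05, SE; adjusted p = 0.023). Pdk2 lay between 2.27 and 2.57 FPKM and was not called (adjusted p = 0.34). Pdk4, which GR is known to induce in liver and muscle, was at most 0.073 FPKM, about 10 fragments or fewer per column. The share of Pdk1 in the summed FPKM of the 4 kinases was 68.5 and 71.3% in control cells and 53.3 and 53.8% in knockdown cells.

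The 7 hypoxia targets did not move together: 3 were called higher (9.45% of all genes were), 2 lower (11.7% of all genes) and 2 were not called. Collagen prolyl 4-hydroxylases stabilise the collagen triple helix, and their alpha subunit genes went in opposite directions. P4ha1 was 11.9 and 11.7 FPKM against 9.23 and 9.42 FPKM (−0.31 ± 0.04, SE; adjusted p = 0.026), and P4ha2 was 16.2 and 16.7 FPKM against 19.8 and 19.8 FPKM (0.25 ± 0.04, SE; adjusted p = 0.032). Their sum stayed between 28.2 and 29.2 FPKM in all 4 columns. Ndrg1, a stress-responsive gene, was 51.4 and 45.8 FPKM against 40.05 and 39.3 FPKM (−0.28 ± 0.05, SE; adjusted p = 0.040). This call was also lost after median ratio rescaling.

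The ankyrin repeat gene Ankrd37 was 2.82 and 2.83 FPKM in control cells and 4.11 and 3.69 FPKM in knockdown cells (0.36 ± 0.06, SE; adjusted p = 0.038). A share of 21.4% of its 31-base stretches lies in other genes, mainly its neighbour Lrp2bp, and the sources used here do not give the strand setting of the counting. Kdm3a, a histone demethylase gene, was 11.0 and 10.9 FPKM against 12.8 and 12.9 FPKM (0.22 ± 0.04, SE; adjusted p = 0.041). Bnip3, a mitophagy receptor gene that shares 57.0% of its 31-base stretches with other genes, was 4.53 and 4.33 FPKM against 3.29 and 3.86 FPKM (adjusted p = 0.11). Carbonic anhydrase 9 (Car9), a widely used hypoxia marker, lay between 2.27 and 2.77 FPKM in all columns (adjusted p = 0.14).

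**Figure D4:**
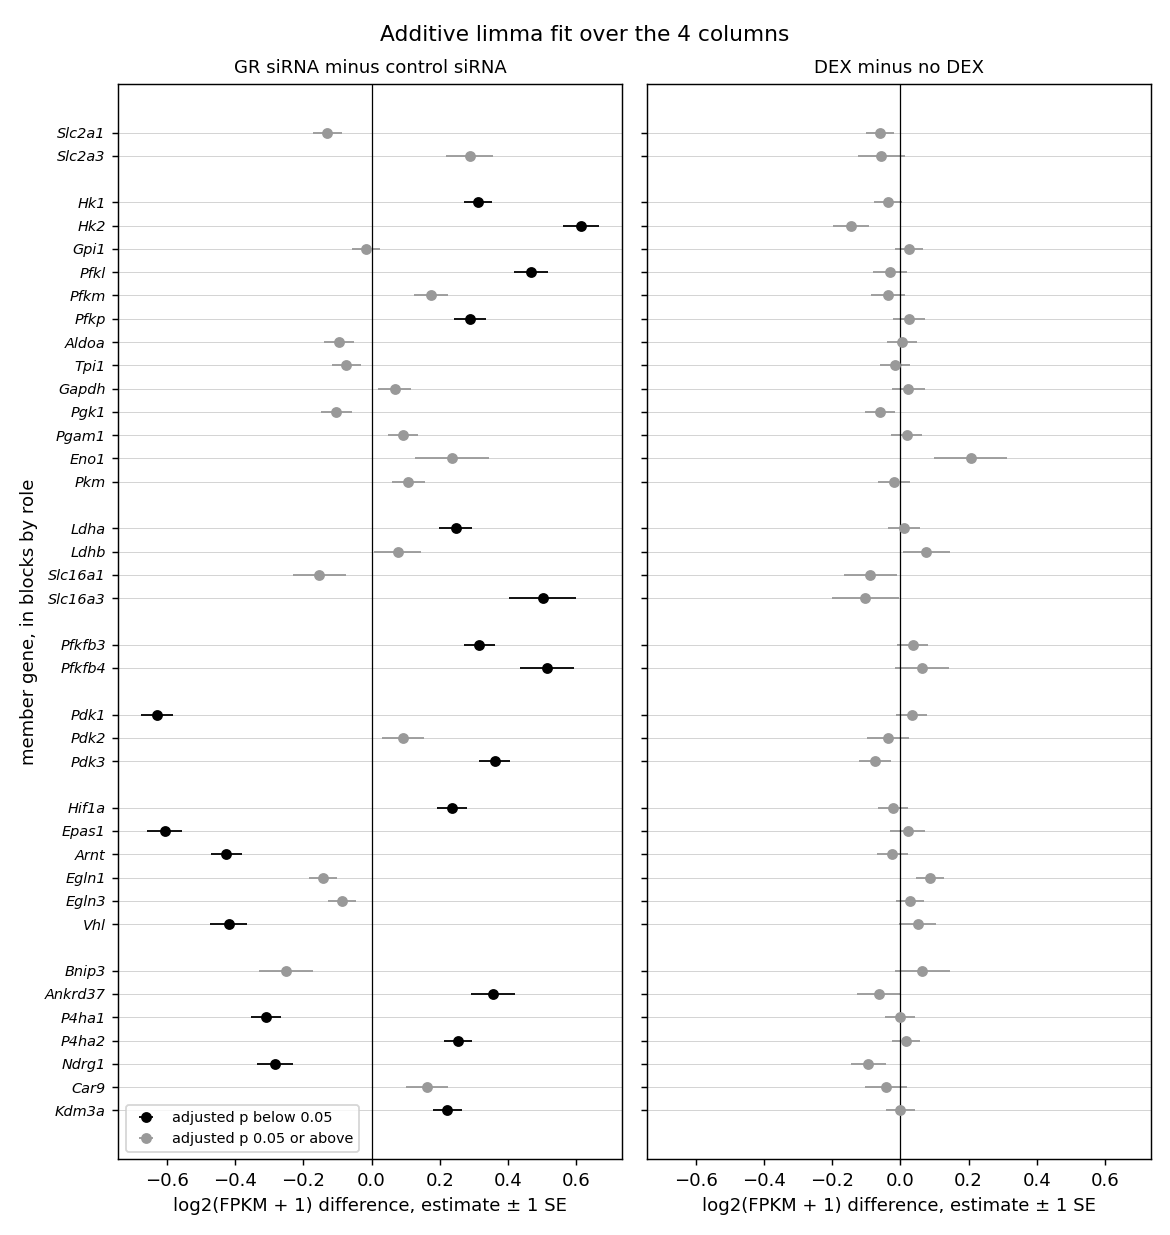
Estimates from the additive limma fit for the 37 members with at least 1 FPKM in a column, as log2(FPKM + 1) differences ± 1 SE over 4 columns; black points have an adjusted p below 0.05. On the left (GR siRNA minus control siRNA) the points run from −0.63 (Pdk1) to 0.61 (Hk2), and on the right (DEX minus no DEX) from −0.15 to 0.21 with no black point.

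DEX differences of these genes were small in both siRNA arms. In control cells the 37 members lay between −0.17 (Hk2) and 0.13 (Pfkfb4), and none was 1.5-fold higher or lower, where 0.686% of all genes were higher and 0.392% lower. In knockdown cells they lay between −0.25 (Slc16a3) and 0.40 (Eno1, whose sum with Eno1b differed by −0.04), and again none reached 1.5-fold (0.531% of all genes higher and 0.645% lower). At a ratio of 5 to 4 no member was higher or lower in control cells (1.02% and 0.882% of all genes), and in knockdown cells Eno1 was higher (1.26%) and none lower (0.973%). Gpi1 was the single member with both DEX columns above both columns without DEX (7.79% of all genes), and none had both below (8.3%). In the additive fit no member was called for DEX or had an unadjusted p below 0.05, while 2 of 11445 genes were called higher (0.0175%) and 1 lower (0.00874%). The DEX term of that fit averages control and knockdown cells. A DEX response confined to control cells is diluted in it and adds to its error, so the fit could hardly call one. The median size of the DEX difference over the members was 0.04 in each arm, against 0.24 without and 0.23 with DEX for the siRNA difference; over all genes the corresponding values were 0.05 and 0.07 against 0.13 and 0.13. These comparisons share columns with the siRNA comparisons and are given side by side only.

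The siRNA difference was of like size without and with DEX for most members. The difference between the 2 effects ran from −0.29 (Slc16a3) to 0.39 (Eno1) with a median of −0.03, where the median over all genes was 0.00. The largest values after these were −0.26 for Slc16a1 and 0.23 for Bnip3. With 1 column per condition this interaction had no residual degrees of freedom and was not tested.

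In neighbouring routes of glucose carbon the calls are to be read against 9.45% of all genes called higher and 11.7% called lower. Of 8 genes of the pentose phosphate pathway 2 were called lower in knockdown cells, ribose 5-phosphate isomerase (Rpia; 16.6 and 16.4 FPKM against 12.7 and 12.7 FPKM; adjusted p = 0.020) and Pgd (89.9 and 91.0 FPKM against 79.5 and 76.7 FPKM; adjusted p = 0.048). Of 10 genes that bring pyruvate into mitochondria none was called in the limma fit, and Pdhb, a subunit of pyruvate dehydrogenase, had the lowest FPKM ratio of those named by rank (121 and 113 FPKM against 100 and 105 FPKM; adjusted p = 0.099). Of 13 measured genes of glycogen and hexosamine synthesis, phosphoglucomutase 2 (Pgm2) was called higher (13.5 and 14.1 FPKM against 17.3 and 17.0 FPKM; adjusted p = 0.030). Of 5 genes of the serine branch, which leaves glycolysis at 3-phosphoglycerate, the hydroxymethyltransferases Shmt1 (adjusted p = 0.039) and Shmt2 (adjusted p = 0.049) were called higher. Of 8 other measured glycolytic isozymes, Eno3, chosen after its values were seen, was called higher (1.37 and 1.65 FPKM against 2.70 and 2.68 FPKM; adjusted p = 0.026).

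Of 29 hypoxia targets measured outside the 40, 3 were called higher in knockdown cells (10.3%, where 9.45% of all genes were) and 8 lower (27.6%, where 11.7% of all genes were). The lipoprotein lipase inhibitor Angptl4 was the largest on the higher side (4.98 and 5.91 FPKM against 12.9 and 12.2 FPKM; adjusted p = 0.014); Mif and Plod1 were the other two, chosen for naming after their values were seen. On the lower side were Plod2, a lysyl hydroxylase of collagen (16.5 and 16.7 FPKM against 10.2 and 9.96 FPKM; adjusted p = 0.011), the mTOR inhibitor gene Ddit4 (373 and 440 FPKM against 238 and 251 FPKM; adjusted p = 0.014) and Insig2, a regulator of sterol synthesis (7.87 and 7.34 FPKM against 4.63 and 4.59 FPKM; adjusted p = 0.014). Of 7 other measured HIF regulators, Hif1an, the asparaginyl hydroxylase that limits HIF activity, was called lower (10.6 and 11.0 FPKM against 8.80 and 8.45 FPKM; adjusted p = 0.033). Angptl4 and Ddit4 are also known targets of GR itself. They differed in opposite directions here, and an action of GR on either gene was not tested.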

How the data were processed

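RNA sequencing of total RNA gave 4 samples, 1 per condition. The authors deposited FPKM for each gene in 1 column per condition. The submitters' processing notes name mm10, the spliced aligner TopHat2 and Cuffdiff, a program that estimates FPKM. The sources used here give no versions, annotation, strand setting or handling of replicates. FPKM divides by length and library size and assigns shared reads by estimate. Differences were taken on log2(FPKM + 1) for genes with at least 1 FPKM in 1 column compared. The design fixed for 1 column per condition held no test. The additive fit with limma 3.58.1 (R 4.3.3, mean-variance trend, Benjamini-Hochberg adjustment) was added after seeing the data. Tested on simulated data for that siRNA effect over 11445 genes, it called 100 of 100 genes changed 1.5-fold, 100 of 100 changed 2-fold and 16 of 11245 unchanged genes. Changes below 1.5-fold were not simulated, and most called members had estimates smaller than that (0.585 on the log2 scale). The simulated counts do not cover the spread between separate cultures, so they give no error rate for the calls made here. Fragment estimates used the longest annotated coding transcript. Shared 31-base stretches came from GENCODE M21 transcripts. All 40 members could be named; from each further list up to 4 genes of at least 5 FPKM with the largest siRNA difference could be. The members and lists were chosen with earlier results of these data known.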

Additional observations from a re-analysis of the deposited data

Results flagged for a closer look

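Eno1b, the copy of Eno1, had DEX differences of opposite sign in the 2 siRNA arms, but the one in control cells was about as small as the median absolute DEX difference over all genes there (0.05). On the log2(FPKM + 1) scale its DEX difference was 0.05 in control siRNA cells (19.0 to 19.7 FPKM) and −1.76 in GR siRNA cells (87.9 to 25.3 FPKM). Eno1 differed the other way in the GR siRNA arm, by 0.40 (175 to 231 FPKM), and the sum of both rows differed by −0.04. The difference between the arms was not tested, since there is 1 column per condition.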

How the results depend on the processing

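No paired analysis was possible because each condition has 1 column and replicate columns are needed for a block; leaving out a replicate was not possible for the same reason. A value with no test counts as moved here if it changed by more than 0.1 (log2), and a count if it changed by more than 1.5 times. With a pseudocount of 0.1 the members at least 1.5-fold lower without DEX numbered 1 in place of 0, and those at least 1.5-fold higher with DEX 2 in place of 1. With a filter of 5 FPKM those at least 1.5-fold higher without DEX numbered 1 in place of 2. At 2-fold no member was higher without DEX (0), higher with DEX (0) or lower with DEX (0). At a ratio of 5 to 4 the counts were 9 higher and 7 lower without DEX, 7 higher and 4 lower with DEX, and 1 higher for DEX in GR siRNA cells. The median siRNA difference without DEX was 0.08 over 37 members and 0.20 without the members that share 10% or more of their 31-base stretches. With no filter on low values the additive limma fit called 0 of all 23997 genes. It thus called 0 members higher and 0 lower (12 and 6 at an unadjusted p below 0.05). Elsewhere it called 10 to 14 higher and 5 or 6 lower. The other 107 values of this kind moved less, and no median or called member changed sign. Rescaling shifted the median of all genes by at most 0.02.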
